A study of Mus musculus with 8 samples.

Results

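Interleukin 10 (IL-10), its receptor, the receptor chains for IL-4 and IL-13, and 3 suppressors of cytokine signaling were followed in mouse peritoneal macrophages that met LPS with or without the small molecule C498. The 8 genes were taken by symbol from the 55801 rows of the expression table: the cytokine Il10, the receptor chains Il10ra, Il10rb, Il4ra and Il13ra1, and the suppressors Socs1, Socs3 and Cish. Each symbol matched 1 row. The macrophages came from young adult male C57BL/6 mice given thioglycollate, an irritant broth that draws monocytes and macrophages into the abdominal cavity, so they were inflammatory rather than resting cells. The 4 groups were NC (vehicle, DMSO), LPS, C498 and C498+LPS, with 2 samples each. C498 at 15 µM, or vehicle, was added for 0.5 h, and LPS, the bacterial lipopolysaccharide that TLR4 senses, followed at 100 ng/ml for 4 h. Carrying no genetic change, the groups differed only in C498 and LPS. The study asked whether C498, selected as an inhibitor of JAK/STAT and NFκB signaling, alters the transcripts that LPS induces. Neither the labels nor the methods say whether the 2 samples of a group came from separate mice or cultures, so p-values measure only the spread between these samples, which may be technical.

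IL-10 is made by activated macrophages and restrains them. It binds a ligand-specific chain, IL10RA, which brings in the shared chain IL10RB, and the kinases JAK1 and TYK2 then activate STAT3. IL-4 binds IL4RA, which pairs with the common gamma chain (Il2rg) or with IL13RA1, a pairing that also takes IL-13, and the signal runs through STAT6 to genes of alternative activation. SOCS1, SOCS3 and CISH are feedback inhibitors: cytokine receptors that use JAK kinases induce them, and they then bind receptors or JAKs and shut the signal down. Socs1 is known as an interferon response gene, Socs3 as a STAT3 response gene and Cish as a STAT5 response gene, and in macrophages LPS induces several of them.

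Values are TPM levels, which correct for gene length and give every sample an equal total. They keep no record of read number, so the depth is unknown and no counting interval is given. Between 17528 and 18975 genes were above 0 in a sample. Changes were fitted by limma as differences of log2(TPM + 1) over the 12189 genes that averaged 1 TPM or more, a scale that understates changes of low genes. A gene was called at a 2-fold change with a Benjamini-Hochberg adjusted p no higher than 0.05, and with 2 samples against 2 an exact permutation test cannot go below p = 0.33. All 8 macrophage markers (Adgre1, Cd68, Csf1r, Lyz2, Itgam, Cd14, Fcgr1, Mertk) were expressed, with summed levels of 20099 to 20590 TPM in NC, 17938 to 18472 in LPS, 15939 to 16075 in C498 and 12420 to 14208 in C498+LPS. Lyz2 alone gave 7831 to 15989 TPM of these sums. Of the 8, Cd14 was called higher in LPS vs NC (2.41), C498 vs NC (1.47) and C498+LPS vs C498 (1.41), and Csf1r was called lower in the last (-1.14). With C498, adjusted p also passed under 2-fold for lower levels of Lyz2 (-0.48) and Fcgr1 (-0.87) in C498 vs NC and of Adgre1 (-0.92), Csf1r (-0.91), Fcgr1 (-0.77) and Lyz2 (-0.64) in C498+LPS vs LPS, where Cd14 passed as higher (0.47). Fibroblast markers moved with C498: Col1a1, Col1a2, Col3a1, Dcn and Pdgfra together gave 150.2 to 200.5 TPM in the 4 samples without C498 and 618 to 911 in the 4 with it. Mesothelial markers (Msln, Upk3b, Krt19, Wt1) summed to 3.67 to 4.65 TPM without C498 and 12.7 to 21.4 with it. NK cell markers summed to 0.41 TPM at most, and neutrophil markers to 52.6 to 135 TPM, lower in all 4 samples with C498 (52.6 to 81.6) than without (82.3 to 135). S100a8 alone gave 48.9 to 128 TPM of the neutrophil sums. Its own values overlapped, at 48.9 to 79.5 with C498 and 75.9 to 128 without. Retnlg was at 0.42 to 1.19 TPM with C498 and 3.93 to 6.03 without. S100a9 (at most 0.86 TPM) and Ly6g (2.62 in C498 replicate 2) were above 0 only with C498. B cell markers summed to 3.46 to 7.07 TPM in NC, LPS and C498, and to 3.93 and 12.6 in C498+LPS. The part of these other cells in any change named here was not tested, and in bulk RNA fewer cells of a type and less RNA per cell cannot be told apart.

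Sequence near the start sites shows how the 3 suppressors differ. RefSeq promoter windows (GRCm38.p6) were at hand for 5 of the 8 genes: Il4ra, Il13ra1, Socs1, Socs3 and Cish. The 250 bases before the Socs1 start (chr16:10785537-10785786, minus strand) and the Socs3 start (chr11:117969367-117969616, minus strand) are shown because these genes had the largest changes in LPS vs NC, and the 26 bases at the Cish start (chr9:107296656-107296681, plus strand) because Cish rose in all 4 pairwise comparisons. Capitals mark matches to an interferon-stimulated response element motif (GAAA, any 2 bases, GAAA) in Socs1, and to TTCNNNGAA, the palindrome that STAT dimers bind, in Socs3 and Cish.
Socs1: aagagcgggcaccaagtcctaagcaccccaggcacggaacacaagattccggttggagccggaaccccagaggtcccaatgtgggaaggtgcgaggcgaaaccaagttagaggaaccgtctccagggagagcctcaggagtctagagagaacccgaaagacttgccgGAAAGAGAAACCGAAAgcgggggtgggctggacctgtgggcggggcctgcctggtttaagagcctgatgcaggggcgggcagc
Socs3: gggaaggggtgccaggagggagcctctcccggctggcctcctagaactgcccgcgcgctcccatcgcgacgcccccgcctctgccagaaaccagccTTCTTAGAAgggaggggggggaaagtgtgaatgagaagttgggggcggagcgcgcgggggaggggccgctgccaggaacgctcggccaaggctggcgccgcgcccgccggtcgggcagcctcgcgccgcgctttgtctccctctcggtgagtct
Cish: gttTTCCTGGAAagTTCTTGGAAatc
Reading 5′ to 3′, Socs1 held 2 overlapping matches to the interferon element, whose first bases lie at -83 and -77 from the start, and no TTCNNNGAA match. Socs3 held 1 TTCNNNGAA match at -154, in a window that GENCODE M21 places inside a noncoding Socs3 transcript. Cish held 2, with first bases at +1 and +12, inside the first exon and 5′ UTR of the GENCODE transcript Cish-201. Searched on both strands of 300 bases (250 before and 50 after the start), TTCNNNGAA occurred in 8.30% of 32851 RefSeq promoters and the interferon element in 3.44%. TGACG, the core of the cAMP response element, occurred in 20.8%, among them Cish (at -97, opposite strand). The windows of Il4ra and Il13ra1 held none of the 3 motifs. A match describes the letters only and is no evidence of binding.

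Il10 (ENSMUSG00000016529, chromosome 1, 131019845-131024974, plus strand in GENCODE M21 on GRCm38) was barely expressed except after C498 and LPS together. It stood at 0.52 and 0.92 TPM in NC, 0.66 and 1.16 in LPS, 0.55 and 0.66 in C498, and 2.66 and 3.89 in C498+LPS. The first 3 groups overlapped one another, and both C498+LPS samples lay above all 6 others. The group means were 0.720 ± 0.283 (SD, n = 2) in NC, 0.910 ± 0.354 in LPS, 0.605 ± 0.0778 in C498 and 3.28 ± 0.870 in C498+LPS. By limma the log2 change was 0.15 (SE 0.281, adjusted p = 0.736) in LPS vs NC and -0.09 (adjusted p = 0.854) in C498 vs NC. Against LPS, C498+LPS gave 1.16 (SE 0.281, adjusted p = 0.0315), a ratio of mean TPM of 3.60, and against C498 it gave 1.40 (SE 0.281, adjusted p = 0.0184), a ratio of 5.41.

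The Il10 calls depended on single samples and on the settings. Its mean over all samples, 1.38 TPM, passed the floor of 1 only through the C498+LPS samples, since the other 6 samples averaged 0.745. Over the alternative settings the limma adjusted p in C498+LPS vs LPS ran from 0.0178 to 0.149, and the call was lost without LPS replicate 1, LPS replicate 2, either C498 replicate or C498+LPS replicate 2 (adjusted p up to 0.149). It was also lost with centring (1.08, adjusted p = 0.0612), quantile normalization (0.95, adjusted p = 0.0620), no filter on low values, a pseudocount of 0.1, or a fit of only those 2 groups. In C498+LPS vs C498 it was lost without either C498 replicate or C498+LPS replicate 2. The interaction, which asks whether the LPS response itself differed with C498, was 1.25 (95% confidence interval 0.32 to 2.19) and did not pass (limma adjusted p = 0.320).

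**Figure D1:**
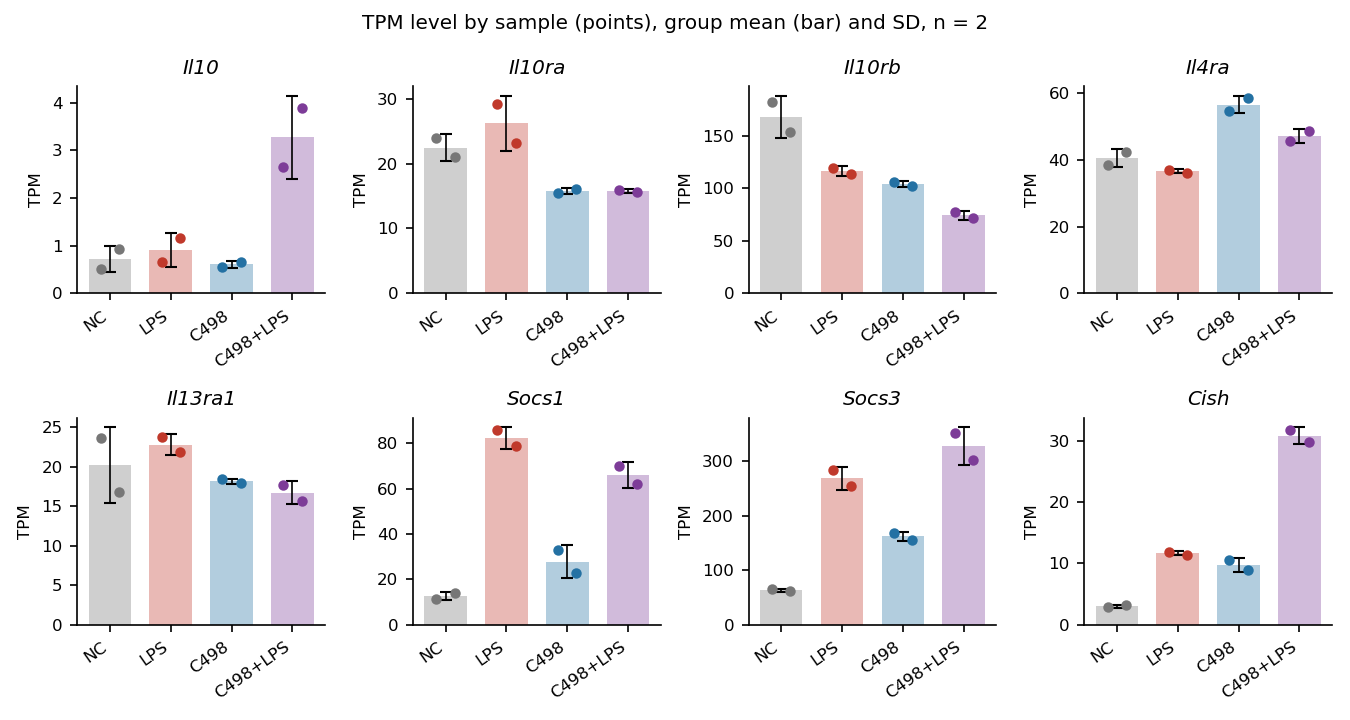
TPM level (vertical axes, linear, each from 0) of the 8 genes in NC, LPS, C498 and C498+LPS; points are samples, bars are group means and error bars the SD of 2 samples. Il10 is above 2 TPM only in C498+LPS, Il10ra and Il10rb are lower in all samples with C498, and Socs1, Socs3 and Cish are higher in all samples with LPS.

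Il10ra (ENSMUSG00000032089, chromosome 9, 45253837-45269149, minus strand), the chain that gives the receptor its specificity for IL-10, was lower wherever C498 was present. Its levels were 23.94 and 20.95 TPM in NC, 29.18 and 23.18 in LPS, 15.5 and 16.11 in C498, and 15.97 and 15.55 in C498+LPS. The 4 samples with C498 spanned only 15.5 to 16.11 TPM, below the 20.95 to 29.18 TPM of the 4 without. C498+LPS vs LPS gave a limma log2 change of -0.69 (SE 0.147, adjusted p = 0.0203, or 0.133 without LPS replicate 1), which did not reach 2-fold, and C498 vs NC gave -0.48 (adjusted p = 0.0705, or 0.0163 with centring). LPS left the gene without a detected change: 0.21 (interval -0.14 to 0.55, adjusted p = 0.335) without C498 and -0.0037 (interval -0.35 to 0.34, adjusted p = 0.992) with it, the latter turning to 0.21 when samples were centred on their median gene.

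Il10rb (ENSMUSG00000022969, chromosome 16, 91406164-91425834, plus strand), shared by the receptors for IL-10, IL-22 and the lambda interferons, had the highest level of the 4 receptor chains followed here and was lower under each agent. It measured 182.26 and 154.1 TPM in NC, 119.8 and 113.2 in LPS, 106.12 and 101.83 in C498, and 77.42 and 71.28 in C498+LPS. No group overlapped another, and the order from NC down to C498+LPS held in every sample. The limma log2 change was -0.52 (SE 0.108, adjusted p = 0.0114) in LPS vs NC, -0.68 (adjusted p = 0.00840) in C498 vs NC, -0.64 (adjusted p = 0.00895) in C498+LPS vs LPS and -0.48 (adjusted p = 0.0267) in C498+LPS vs C498. All 4 passed on adjusted p and none reached 2-fold. Each lost its adjusted p under some alternative: it reached 0.0748 in LPS vs NC, 0.0723 in both comparisons of C498 and, in C498+LPS vs C498, 0.147 without C498 replicate 1 and 0.111 with centring (-0.26). The first 3 lost it without either replicate of LPS or of C498, whichever the comparison held, and C498+LPS vs LPS also without C498+LPS replicate 2. The interaction was 0.04 (interval -0.32 to 0.40, adjusted p = 0.940) while the group mean went from 168.2 ± 19.9 TPM (SD, n = 2) in NC to 74.4 ± 4.34 in C498+LPS.

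Because the receptor needs both chains, their ratio was taken within each sample. Il10rb exceeded Il10ra by 7.61 and 7.36 times in NC, 4.11 and 4.88 in LPS, 6.85 and 6.32 in C498, and 4.85 and 4.58 in C498+LPS. The 4 samples with LPS lay at 4.11 to 4.88, all below the 6.32 to 7.61 of the 4 without, whereas with and without C498 the ratios overlapped. These comparisons of 4 samples against 4 were added after the values were seen, as 22 exact two-sided permutation tests over the 8 genes and 3 ratios. The smallest p they can give is 0.0286, which 8 of the 22 reached, and after Benjamini-Hochberg adjustment over the 22 it was 0.0786, so none passed. Full separation of 4 samples from 4 gives that p by itself. The tests also shuffled all 8 samples without regard to the other agent, which changes several of these genes, so their p-values only describe the separation. The ratio reached that p for LPS, and Il10ra and Il10rb reached it for C498 (mean log2 differences of -0.58 and -0.66). Over all tested genes, 6.46% lay lower in all 4 samples with C498 than in all 4 without, and 12.7% higher.

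Il4ra (ENSMUSG00000030748, chromosome 7, 125552120-125579474, plus strand), the signaling chain for IL-4 and IL-13, moved the other way with C498. It stood at 38.62 and 42.49 TPM in NC, 37 and 36.17 in LPS, 54.78 and 58.48 in C498, and 45.81 and 48.59 in C498+LPS. All 4 samples with C498 (45.81 to 58.48 TPM) were above all 4 without (36.17 to 42.49), a mean log2 difference of 0.42 (exact permutation p = 0.0286, adjusted 0.0786). By limma C498 vs NC gave 0.47 (SE 0.103, adjusted p = 0.0248), under 2-fold, and C498+LPS vs LPS gave 0.36 (adjusted p = 0.0554). With centring these were 0.35 (adjusted p = 0.156) and 0.28 (adjusted p = 0.258). LPS changes were small, at -0.14 (adjusted p = 0.341) without C498 and -0.26 (adjusted p = 0.135) with it, and the former was 0.03 when centred.

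Il13ra1 (ENSMUSG00000017057, chromosome X, 36112110-36171259, plus strand), which joins IL4RA in the receptor that binds IL-13, was called in no comparison. NC held 23.57 and 16.8 TPM, LPS 23.73 and 21.88, C498 18.4 and 17.95, and C498+LPS 17.74 and 15.65. The NC replicates alone spanned most of this range. Its lowest limma adjusted p was 0.143, in C498+LPS vs LPS (-0.43, interval -0.84 to -0.02), and with centring this was -0.51 (adjusted p = 0.0203), still under 2-fold. Il4ra exceeded Il13ra1 by 1.64 and 2.53 times in NC, 1.56 and 1.65 in LPS, 2.98 and 3.26 in C498, and 2.58 and 3.10 in C498+LPS. The ratio was higher in all 4 samples with C498 than in all 4 without (exact permutation p = 0.0286, adjusted 0.0786).

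**Figure D2:**
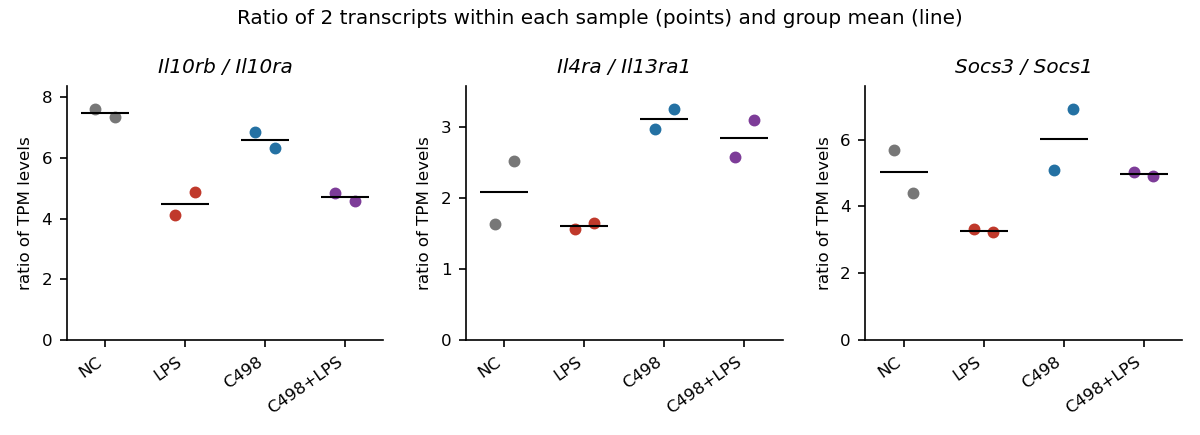
Ratio of TPM levels (vertical axes, linear, from 0) of Il10rb to Il10ra, Il4ra to Il13ra1 and Socs3 to Socs1 in NC, LPS, C498 and C498+LPS; points are samples and lines group means. Il10rb to Il10ra is 4.11 to 4.88 in the samples with LPS and 6.32 to 7.61 without, and Il4ra to Il13ra1 is at least 2.58 in the samples with C498 and at most 2.53 without.

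IL-4 and IL-13, the ligands of the second receptor pair, were near or at 0. Il4 was listed at 0 in 6 of 8 samples and at 0.24 and 0.84 TPM in the others, Il13 did not exceed 0.07 TPM, and the decoy receptor Il13ra2 did not exceed 0.05. Markers of cells that can make IL-4 were low as well: summed over each list, T cells gave 3.56 to 7.15 TPM, mast cells 8.81 to 22.9 and eosinophils 0.67 to 2.21, with Epx at 0 in every sample. Il2rg, the common gamma chain, was abundant at 215 to 284 TPM and was not called in any comparison. Of 9 listed IL-10 family cytokines and partner chains, 2 passed the expression floor. Il22, a cytokine that signals through IL10RB, was at 0 and 0.07 TPM in NC, 3.70 and 3.32 in LPS, 2.07 and 1.12 in C498, and 2.31 and 3.75 in C498+LPS. It rose in LPS vs NC (limma log2 change 2.12, adjusted p = 0.00209) and C498 vs NC (1.30, adjusted p = 0.0262), the latter lost without the filter on low values. Il20rb, from 1.97 to 5.47 TPM, was not called.

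Socs1 (ENSMUSG00000038037, chromosome 16, 10782240-10785536, minus strand), which blocks the JAKs of interferon receptors, had the largest change of the 8 genes in LPS vs NC. It stood at 11.53 and 14.04 TPM in NC, 85.55 and 78.91 in LPS, 32.99 and 22.62 in C498, and 69.84 and 61.88 in C498+LPS. No group overlapped another: C498 alone lay above NC, and C498+LPS lay below LPS. In LPS vs NC the limma log2 change was 2.60 (SE 0.189, adjusted p = 0.000134), a ratio of mean TPM of 6.43, and in C498+LPS vs C498 it was 1.24 (adjusted p = 0.00700), a ratio of 2.37, lost without C498 replicate 2 (0.97) and without C498+LPS replicate 1 (adjusted p = 0.0566). C498 vs NC gave 1.05 (SE 0.189, adjusted p = 0.0133), close to the 2-fold line and lost without NC replicate 1, without C498 replicate 1, with centring (0.92) and when only those 2 groups were fitted (adjusted p = 0.0989). C498+LPS vs LPS gave -0.32 (interval -0.76 to 0.13, adjusted p = 0.307). The interaction was -1.36 (interval -1.99 to -0.73) and did not pass (adjusted p = 0.106).

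Socs3 (ENSMUSG00000053113, chromosome 11, 117966079-117970047, minus strand), the inhibitor of gp130 cytokine receptors such as that of IL-6, was the most abundant of the 8 genes in the 3 treated groups. NC held 65.47 and 61.81 TPM, LPS 283.38 and 254.1, C498 168.04 and 156.48, and C498+LPS 352.1 and 303.19. Every LPS sample lay above every sample without LPS, and within each LPS state the C498 samples lay higher. The limma log2 change was 2.06 (SE 0.108, adjusted p = 3.0e-05) in LPS vs NC, 1.34 (adjusted p = 0.000525) in C498 vs NC and 1.01 (adjusted p = 0.00161) in C498+LPS vs C498, ratios of 4.22, 2.55 and 2.02. The last fell under 2-fold without C498 replicate 2 (0.96) or C498+LPS replicate 1 (0.90) and with quantile normalization (0.98). With LPS present, C498 added 0.28 (interval 0.03 to 0.54, adjusted p = 0.123, or 0.0359 with quantile normalization). The interaction was -1.05 (SE 0.152, interval -1.41 to -0.70, adjusted p = 0.0436), so LPS multiplied Socs3 by less in cells given C498, though the call was lost when any of the 8 samples was left out.

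Cish (ENSMUSG00000032578, chromosome 9, 107296026-107302784, plus strand), which restrains STAT5 signals of cytokine receptors, rose with each agent and again with both. It was at 2.87 and 3.15 TPM in NC, 11.94 and 11.43 in LPS, 10.58 and 8.97 in C498, and 31.79 and 29.88 in C498+LPS. Every C498+LPS sample exceeded the highest other sample by more than 2-fold. The limma log2 change was 1.66 (SE 0.146, adjusted p = 0.000309) in LPS vs NC, 1.42 (adjusted p = 0.00145) in C498 vs NC, 1.33 (adjusted p = 0.00190) in C498+LPS vs LPS and 1.57 (adjusted p = 0.000958) in C498+LPS vs C498. The ratios of mean TPM were 3.88, 3.25, 2.64 and 3.15. Unlike Socs3, its interaction was -0.10 (interval -0.58 to 0.39, adjusted p = 0.892), and whether the 2 genes' interactions differ was not tested. The call in C498 vs NC was lost when only those 2 groups were fitted (adjusted p = 0.0517).

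**Figure D3:**
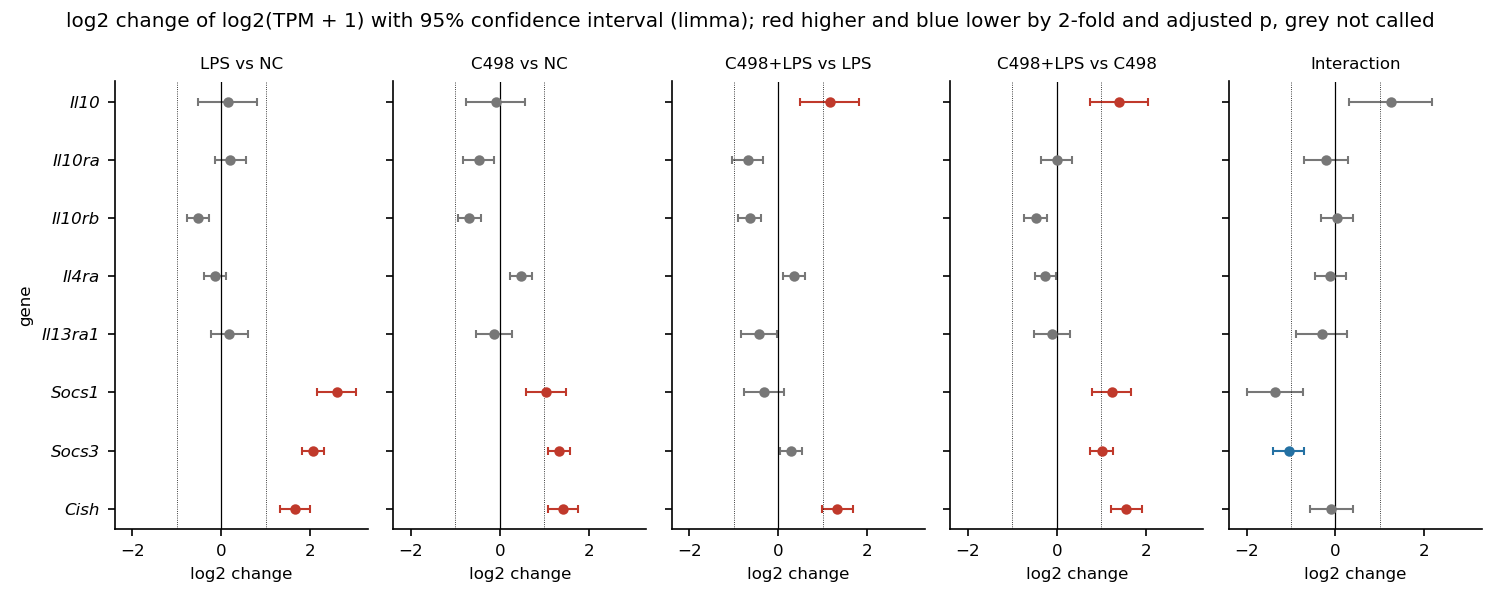
Change of log2(TPM + 1) (horizontal axes; points are limma estimates and bars 95% confidence intervals) of the 8 genes in 4 pairwise comparisons and the interaction of C498 and LPS; dotted lines mark a 2-fold change, red genes were called higher, blue lower and grey were not called. Cish is called higher in all 4 pairwise comparisons, the 4 receptor chains in none, and Socs3 is the gene called in the interaction, at -1.05.

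Counted together, 3 of the 8 genes were called in LPS vs NC, all higher (Socs1, Socs3, Cish), where 5.55% of all tested genes were called higher. The same 3 symbols were called higher in C498 vs NC, where 5.64% of tested genes were. Both comparisons share the NC samples, so they are not independent. In C498+LPS vs LPS 2 were called higher, Il10 and Cish (5.39% of tested genes), and in C498+LPS vs C498 4 were, namely Il10, Socs1, Socs3 and Cish (2.52%). Il10 entered these last 2 counts through the group in which it is high, and without it they were 1 and 3 of 7. The interaction called 1 of 8 lower (0.394%). On adjusted p alone, whatever the size of the change, 4 of 8 passed in LPS vs NC (29.6% of tested genes), 5 in C498 vs NC (15.5%), 4 in C498+LPS vs LPS (16.8%), and C498+LPS vs C498 had 5 (16.2%). Groups of 2 did not overlap for 5, 6, 8 and 7 of the 8 genes in the 4 comparisons, as they did not for 61.4%, 57.7%, 62.8% and 66.2% of tested genes. Il10 is again among the genes counted in C498+LPS vs LPS and C498+LPS vs C498, on adjusted p and on overlap, through the group in which it is high. With Il10 counted, the members' share without overlap was near that of all genes in LPS vs NC and above it in the others, a difference that was not tested. Socs1, Socs3 and Cish were also higher in all 4 samples with LPS than in all 4 without (exact permutation p = 0.0286, adjusted 0.0786), as were 6.75% of tested genes, while 21.3% were lower. Over all tested genes the median log2 change was -0.17 in LPS vs NC, -0.18 in C498+LPS vs C498 and 0.014 and 0.0065 in C498 vs NC and C498+LPS vs LPS. Centring removed the first shift and changed the share of calls that were higher from 45.4% to 61.7% in LPS vs NC, 44.6% to 68.9% in C498+LPS vs C498 and 80.5% to 67.7% in C498 vs NC. It also moved the median to -0.11 in C498 vs NC and -0.070 in C498+LPS vs LPS. Centred changes in those 2 comparisons are therefore lower for every gene. With centring, the LPS vs NC changes were 2.77 for Socs1, 2.23 for Socs3, 1.83 for Cish and -0.35 for Il10rb.

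Levels per length also changed order. In NC the order ran Il10rb, Socs3, Il4ra, Il10ra, Il13ra1, Socs1, Cish, Il10, and only the ranges of Il10ra and Il13ra1 overlapped. In LPS it was Socs3, Il10rb, Socs1, Il4ra, Il10ra, Il13ra1, Cish, Il10, again with Il10ra and Il13ra1 overlapping. In C498 alone Socs3 led, followed by Il10rb, Il4ra, Socs1, Il13ra1, Il10ra, Cish and Il10, with no overlap between neighbours. In C498+LPS it was Socs3, Il10rb, Socs1, Il4ra, Cish, Il13ra1, Il10ra, Il10, and Il13ra1 and Il10ra overlapped. Socs3 relative to Il10rb, the highest of the 4 receptor chains, thus went from below it in NC to above it in the other 3 groups. Socs3 exceeded Socs1 by 5.68 and 4.40 times in NC, 3.31 and 3.22 in LPS, 5.09 and 6.92 in C498, and 5.04 and 4.90 in C498+LPS, ratios that overlapped both with and without C498 and with and without LPS.

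The family holds 5 further members, and of Socs2, Socs4, Socs5, Socs6 and Socs7 none was called in any comparison. Socs7 passed on adjusted p under 2-fold in C498 vs NC (0.89, limma adjusted p = 0.0322) and LPS vs NC (0.82, adjusted p = 0.0259), and Socs2, known as an inhibitor of growth hormone signaling, in LPS vs NC (0.89, adjusted p = 0.0200) and C498+LPS vs C498 (0.79, adjusted p = 0.0472). Socs2 was at 2.62 and 1.81 TPM in NC, 4.93 and 4.86 in LPS, 4.32 and 3.53 in C498, and 6.68 and 8.43 in C498+LPS. It was called higher in LPS vs NC with centring (1.05), quantile normalization or a pseudocount of 0.1, and in C498+LPS vs C498 with centring (1.01) or quantile normalization, which also called Socs7 higher in LPS vs NC (1.03). Of 12 other brakes and SOCS box partners, Ptpn2, a phosphatase of JAK1 and STATs, rose in LPS vs NC (1.05, adjusted p = 0.00169), and Ptpn6, the phosphatase SHP-1, fell in C498+LPS vs LPS by 1.28 on the log2 scale (adjusted p = 0.000430). Ptpn6 was at 256 and 267 TPM in NC, 225.2 and 219.6 in LPS, 133 and 134 in C498, and 94.6 and 87.8 in C498+LPS. In C498 vs NC it was at -0.97 (adjusted p = 0.000695), just under 2-fold, and was called lower with centring (-1.09) or quantile normalization (-1.03).

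Of 10 JAKs and STATs, 2 were called higher in LPS vs NC, where 5.55% of all tested genes were: Jak2 (2.33, limma adjusted p = 0.000497) and Stat5a (1.88, adjusted p = 0.000813). The same 2 were higher in C498+LPS vs C498 (2.52% of all tested genes), Stat5a by 2.23 (adjusted p = 0.000908) and Jak2 by 1.52 (adjusted p = 0.00639, up to 0.0668 over the alternatives), and none was called in either comparison of C498. Under 2-fold, adjusted p passed for Tyk2, a kinase of the IL-10 receptor, in C498+LPS vs LPS (-0.82, adjusted p = 0.0134, up to 0.105 over the alternatives), and for Stat2 (0.67) and Jak3 (-0.49) in LPS vs NC. Tyk2 was at 25.93 and 22.33 TPM in NC, 30.47 and 27.74 in LPS, 20.22 and 20 in C498, and 18.28 and 14.02 in C498+LPS. Stat5a, a transducer that induces Cish in other settings, was at 18.0 and 13.0 TPM in NC, 65.9 and 53.1 in LPS, 17.1 and 13.8 in C498, and 84.9 and 67.9 in C498+LPS. Stat3, which serves IL-10, ranged from 61.9 to 107 TPM over the 8 samples, and Stat6, which serves IL-4, from 67.7 to 224 TPM, with the NC replicates at 224 and 107. Neither was called.

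Cytokines that signal through JAK and STAT were counted next. Of 14 listed, 7 passed the floor, which a gene low in NC passes only if some group is high, and the other 7 averaged under 1 TPM. In LPS vs NC all 7 tested were called higher, with Il6 at 7.77 (adjusted p = 4.59e-07), Csf3 at 3.38, Il15 at 2.51 and Lif at 2.34 by limma. C498 vs NC called 5 of 7 higher, led by Lif (2.92), Ifng (2.87), Osm (2.80) and Il6 (2.02). C498+LPS vs LPS called 3 of 7, Ifng (2.50), Lif (1.79) and Osm (1.23), with Il6 at -0.34 and Il15 at -0.63, and C498+LPS vs C498 called 6, led by Il6 (5.41). Osm, an IL-6 family cytokine that signals through gp130, was at 4.55 and 4.71 TPM in NC, 11.97 and 9.54 in LPS, 40.22 and 36.16 in C498, and 28.43 and 24.62 in C498+LPS. Il6 was at 1.05 and 1.80 TPM in NC, 532 and 512 in LPS, 8.29 and 9.18 in C498, and 424 and 401 in C498+LPS. As with Socs3, the interaction was called lower for 3 of these, where 0.394% of all tested genes were. They were Il6 (-2.36), Csf3 (-1.81) and Osm (-1.57), with limma adjusted p of 0.0128 to 0.0412. With one alternative or another each of the 3 lost its adjusted p.

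Of 10 tested genes that IL-10 is known to induce in macrophages, 3 were called higher in LPS vs NC (Il1rn 2.13, Tnfrsf1b 1.73, Il4i1 1.33), 4 in C498 vs NC (Zfp36 2.32, Ddit4 2.21, Nfil3 1.29, Il1rn 1.07), 3 in C498+LPS vs LPS (Ddit4 2.34, Zfp36 1.87, Nfil3 1.86) and 2 in C498+LPS vs C498 (Tnfrsf1b 1.49, Il1rn 1.11). Of all tested genes 5.55%, 5.64%, 5.39% and 2.52% were called higher, and the list itself was not tested. None was called lower in these limma comparisons, though 3 changes under 2-fold passed on adjusted p as lower, namely Tnfrsf1b in C498+LPS vs LPS (-0.67, adjusted p = 0.0471) and Nfil3 (-0.56, adjusted p = 0.0201) and Hmox1 (-0.33, adjusted p = 0.0397) in LPS vs NC. As higher, Zfp36 (0.93) so passed in LPS vs NC, Hmox1 in C498 vs NC (0.74) and C498+LPS vs LPS (0.95), and Zfp36 (0.47) and Il4i1 (0.96) in C498+LPS vs C498, and Il1rn in C498 vs NC was not called with centring. The list median was 0.61 in C498 vs NC, where all tested genes had a median of 0.014, and 0.20 against 0.0065 in C498+LPS vs LPS. It was 0.071 against -0.17 in LPS vs NC and 0.19 against -0.18 in C498+LPS vs C498, so it lay above the general median in all 4. Zfp36, which speeds decay of cytokine mRNA, was at 35.3 and 31.1 TPM in NC, 66.9 and 61.0 in LPS, 178 and 162 in C498, and 234 and 239 in C498+LPS. Ddit4, an inhibitor of mTORC1, was at 4.38 and 5.35 TPM in NC, 5.61 and 6.14 in LPS, 24.3 and 27.9 in C498, and 29.7 and 38.4 in C498+LPS.

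Genes of the IL-4 and STAT6 program divided. Of 12 listed, 8 were tested. Ccl22, a chemokine for type 2 T cells, rose in all 4 pairwise comparisons by 1.08 to 2.07 on the log2 scale, from 3.26 and 4.05 TPM in NC to 30.7 and 52.0 in C498+LPS, with C498 vs NC lost when samples were centred. Irf4 rose in C498 vs NC (1.03) and C498+LPS vs LPS (1.32), the former lost with centring. Alox15, a lipoxygenase, fell by 1.86 in C498+LPS vs LPS (limma adjusted p = 0.00349), from 3.29 and 3.32 TPM to 0.15 and 0.23. It was also called lower in C498+LPS vs C498 (-1.03, adjusted p = 0.0326, up to 0.136 over the alternatives). Retnla, Chil3, Mrc1, Ccl24 and Clec10a were called in none. Under 2-fold, adjusted p passed for Retnla as higher in C498+LPS vs LPS (0.78, adjusted p = 0.0349, up to 0.190 over the alternatives).

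**Figure D4:**
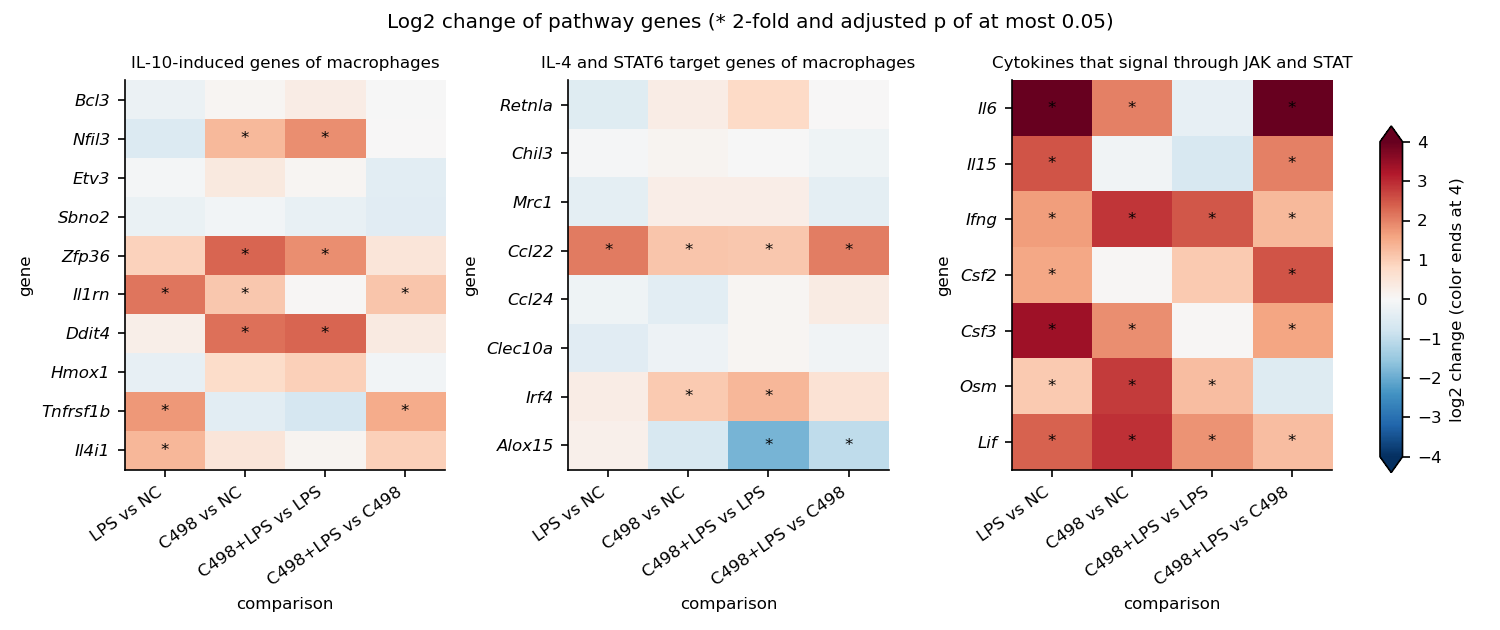
Limma log2 change (color, ending at 4) of IL-10-induced genes, IL-4 and STAT6 targets and JAK-STAT cytokines that passed the expression floor, in the 4 pairwise comparisons (columns); asterisks mark a 2-fold change with an adjusted p of at most 0.05. Zfp36, Ddit4 and Nfil3 are marked in both comparisons of C498, Ccl22 in all 4 columns, and all 7 cytokines in LPS vs NC.

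Of 13 tested factors known to act on the Il10 gene, 4 were called higher in C498 vs NC, namely Dusp1 (4.79), Sik1 (2.30), Fos (2.30) and Bhlhe40 (1.20), and in C498+LPS vs LPS the same 4 symbols were, by 3.25, 1.85, 2.72 and 1.37. Of all tested genes 5.64% and 5.39% were called higher in these comparisons. Under 2-fold, limma adjusted p passed as lower in C498+LPS vs LPS for Maf (-0.78, adjusted p = 0.0447) and Rps6ka4 (-0.75, adjusted p = 0.00561). In C498 vs NC it passed as higher for Nfkb1 (0.63) and Sik3 (0.72). Bhlhe40 is known to repress Il10, and Dusp1 to dephosphorylate p38. Dusp1 was at 16.98 and 14.65 TPM in NC, 12.81 and 15.26 in LPS, 496 and 435 in C498, and 131 and 153 in C498+LPS. In LPS vs NC, Nfkb1 (2.08), Prdm1 (1.39) and Map3k8 (1.05) were called higher, and Fos and Sik1 fell by 2.39 and 1.06. In C498+LPS vs C498, Nfkb1 was called higher (1.64) and Fos, Dusp1 and Sik1 fell by 1.97, 1.71 and 1.52. Under 2-fold, adjusted p passed for Rps6ka4 (0.75) and Bhlhe40 (-0.70) in LPS vs NC and for Bhlhe40 (-0.53) in C498+LPS vs C498. The Sik1 call in LPS vs NC was lost with centring. Taking all pathway lists together, 66 calls were made in the 4 pairwise comparisons, and 49 of them held a limma adjusted p of 0.05 or less under every alternative. The 17 that did not were Csf2, Osm, Prdm1 and Sik1 in LPS vs NC, Ccl22 and Irf4 in both comparisons of C498, Il22 in C498 vs NC, Lif in C498+LPS vs LPS, and Jak2, Alox15, Il15, Ifng, Csf2, Lif and Sik1 in C498+LPS vs C498. In the interaction 5 list genes were called lower, Il1rn (-1.03) and Dusp1 (-1.54) beside the 3 cytokines, and none of the 5 held under every alternative.

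Genes whose profile over the 8 samples was most like that of a called gene were found by the root mean square difference of mean-centred log2(TPM + 1) among 11892 tested genes with a symbol. Closest to Cish was Cd83 (0.128, against an SD of 1.06 for Cish itself), followed by Sema7a (0.220) and F3 (0.267). Cd83 stood at 12.5 and 11.0 TPM in NC, 37.3 and 33.3 in LPS, 28.1 and 27.9 in C498, and 86.8 and 86.9 in C498+LPS. For Socs3 they were Il1rn (0.146), Ripk2 (0.159) and Tgm2 (0.172), and for Socs1 Serpina3f (0.170), Tgtp2 (0.191) and D16Ertd472e (0.204). For Il10 the likeness was looser relative to its own SD of 0.589: Gm10925 (0.237), Mfap5 (0.248) and Mt1 (0.249). Likeness over 8 samples of 4 groups mostly reflects the 4 group means.

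All 8 genes are annotated as protein coding. Annotated genes overlap 4 of them (Il10ra, Il10rb, Il4ra and Cish), and these 6 neighbours, Gm21970, Gm20612, Mir7086, Gm44876, Gm17040 and Gm17041, were at 0.99 TPM at most. The use of strand in counting is not given in the sources used here, so reads of a gene and its antisense partner cannot be told apart. Gm21970 shares 13288 bases with Il10rb on the same strand, and Mir7086 lies on the same strand as Il10ra. Strand alone could not separate reads in those shared bases.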

How the data were processed

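RNA was measured by paired-end sequencing (TruSeq RNA kit, NovaSeq) in 8 samples of mouse peritoneal macrophages, and all 8 were used. Per the labels, the authors processed the reads with fastp, HISAT2, StringTie and RSEM. The deposited values are TPM, per the file headers, given by the authors with 2 decimals beside group means and annotation that were not used. They tested counts with DESeq2, which TPM values do not allow. Tool versions, genome build and strand setting are not given in the sources used here.

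TPM values were transformed as log2(TPM + 1). Genes averaging 1 TPM or more, 12189 of the 24248 above 0 in some sample, were fitted by limma 3.58.1 in R 4.3.3 over all 8 samples with 1 mean per group and a variance trend, with Benjamini-Hochberg adjustment over all tested genes per comparison. The study's thresholds for a call were used, a 2-fold change with an adjusted p no higher than 0.05. Comparisons were LPS vs NC, C498 vs NC, C498+LPS vs LPS, C498+LPS vs C498 and the interaction. Permutation tests used scipy 1.17.1, figures matplotlib 3.10.9. The steps were tested on simulated data. The 8 genes and all gene lists were chosen with earlier results of these data known, and a few list genes are not reported here. Named from each list were up to 4 called genes per comparison with the largest change, plus ligands and transducers. Alternatives were a pseudocount of 0.1, no filter, a mean TPM of at least 5, median centring, quantile normalization, fitting only the groups compared, no variance trend, a replicate block, no fold threshold and leaving out each sample.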

Additional observations from a re-analysis of the deposited data

Results flagged for a closer look

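The change with C498 was set apart by LPS state for Socs3 by a test, and for Socs1 only by the order of the samples. For Socs3 the limma interaction was -1.05 (adjusted p = 0.0436), with C498 giving 1.34 without LPS and 0.28 with it, and the call was lost with centring (adjusted p = 0.0758) and in each of the 8 fits with a sample left out. For Socs1 every sample with C498 alone lay above NC (22.62 and 32.99 against 11.53 and 14.04 TPM) while every C498+LPS sample lay below LPS (61.88 and 69.84 against 78.91 and 85.55 TPM), and the interaction of -1.36 did not pass (limma adjusted p = 0.106).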

How the results depend on the processing

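Of the settings tried, the number of the 8 genes called stayed at 3 or 4 in LPS vs NC. In C498 vs NC it went from 3 to 1 when only the groups compared were fitted, to 2 with centring or without NC replicate 1 or C498 replicate 1, and to 5 with no fold threshold. In C498+LPS vs LPS it went from 2 to 1 with a pseudocount of 0.1, no filter, a mean TPM of at least 5, centring, quantile normalization or only the groups compared, to 4 with no fold threshold, and to between 1 and 2 without single samples. In C498+LPS vs C498 it went from 4 to 3 with quantile normalization or a mean TPM of at least 5 and to 5 with no fold threshold, and was 1 to 4 without single samples, 1 without C498 replicate 2 and 2 without C498+LPS replicate 1. The interaction went from 1 to 0 with no filter, centring or no variance trend, and to 0 without any single sample. Only the groups compared could not be fitted for the interaction. The cause of these shifts was not tested.

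Changes that turned direction were not called in the first place. With centring, Il4ra in LPS vs NC was 0.025, Il10ra in C498+LPS vs C498 0.21 and Il13ra1 there 0.096, and with quantile normalization the last 2 were 0.21 and 0.076. Without single samples, the range was -0.041 to 0.34 for Il10 and -0.047 to 0.42 for Il13ra1 in LPS vs NC, -0.26 to 0.078 for Il10 and -0.36 to 0.11 for Il13ra1 in C498 vs NC, and -0.030 to 0.022 for Il10ra in C498+LPS vs C498. For the interaction it was -0.078 to 0.16 for Il10rb and -0.20 to 0.012 for Cish. Over 4 samples against 4, it was -0.22 to 0.076 for the Il10rb to Il10ra ratio with C498 (0.037 with quantile normalization), -0.11 to 0.82 for Socs1 with C498, and -0.057 to 0.13 for Il13ra1 and -0.066 to 0.22 for Il10ra with LPS. Of all fits of single genes under the alternatives, 612 kept direction and side of the threshold, 34 lost a call, 6 gained one and 15 turned.

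The replicate number as a block left the counts at 3, 3, 2, 4 and 1 and changed no call of the 8 genes. On limma adjusted p alone, changes under 2-fold passed with the block that did not without it. They were Socs3 (adjusted p = 0.0440) and Il4ra (0.0413) in C498+LPS vs LPS and Il10ra (0.0493) in C498 vs NC. Among the listed genes the block added calls of Creb1 in C498 vs NC (1.01, adjusted p = 0.0361, or 0.0619 without the block) and the mast cell marker Mcpt4 in C498+LPS vs LPS (1.04, adjusted p = 0.0482, or 0.130 without it). Its p-values are not a paired test: differences between same-numbered samples correlated between groups by 0.0397 to 0.168, so the numbers were taken as names only. With 2 samples per group and no read counts, low genes such as Il10 have an unknown counting error.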
